A study of Mus musculus with 18 samples.

Results

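The comparison asked whether the cerebellum of mice without apolipoprotein D (ApoD) answered to paraquat differently from that of wild-type mice. For each gene, the paraquat effect in ApoD knock-out mice (paraquat minus saline, log2) was taken minus the paraquat effect in wild-type mice. A positive difference therefore stands for a higher effect in the knock-out. The comparison rested on 12 of the 18 arrays of the series, 3 in each of 4 groups, chosen by the genotype and treatment in the array titles. The groups were wild-type mice given saline, wild-type mice given paraquat (PQ), ApoD-KO mice given saline and ApoD-KO mice given paraquat. All were male and adult, aged 80±5 days. Paraquat was injected into the peritoneum once, at 30 mg/kg in 200 µl of saline, and the cerebellum was removed after 6 h. Arrays whose titles name no paraquat were taken as saline from the protocol. Each group had 9 mice, and each array held equal amounts of RNA from 3 of them, so that the spread between arrays is one between pools and not between single animals. The labels give neither the strain background nor the part of the gene that was deleted. The remaining 6 arrays came from transgenic mice that over-express ApoD in neurons. They entered the fit for the estimate of the spread alone.

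ApoD is a small secreted lipocalin that binds arachidonic acid and other lipids, and glial cells of the nervous system make much of it. Its transcript is known to rise in ageing, injury and oxidative stress, and flies and mice without it tolerate oxidants less well. Paraquat is a herbicide that takes electrons from cellular reductases and passes them to oxygen, which yields superoxide. An acute injection is also a systemic stress, and stress hormones act on the brain through the glucocorticoid receptor, a transcription factor that binds a palindromic DNA element.

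No gene passed the test for a different paraquat effect. Of 8320 genes tested, 0 had an adjusted p under 0.05 (0%), and without array 2 of the knock-out paraquat group the count was also 0 (0%). The adjusted p is from limma with Benjamini-Hochberg correction over all 8320 genes. An unadjusted p under 0.05 was seen for 148 genes (1.78%) with all arrays and for 63 genes (0.757%) without that array. The lowest adjusted p was 0.487 with all arrays, for Apod, and 0.383 without array 2, for Zfp36. A shared response to paraquat was plain in the same arrays. On the mean of the wild-type and the knock-out effect, which does not use the difference between genotypes, 237 genes were raised (2.85%) and 303 were lowered (3.64%). "Raised" and "lowered" are used below for these genes. Without array 2, 510 genes were raised (6.13%) and 310 lowered (3.73%), of which 233 and 278 were shared with the first sets. The count of 540 was 829 without array 3 of the same group, 359 without wild-type paraquat array 1 and 354 without knock-out saline array 2.

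The promoters of 3 raised genes are shown first, as examples of raised genes that carry a motif that was searched for. The sequences are RefSeq's for mouse build GRCm38.p6, from 250 bases before to 50 after the listed start of the gene, 5′ to 3′ on the gene's strand. Capitals mark the motif found by search on both strands: a glucocorticoid element (GNACANNNTGTNC) in Map3k6 and Sgk1, and a CArG box, the site of serum response factor, in Zfp36. The windows lie at chr7:28379179-28379478 on the minus strand for Zfp36, at chr4:133240568-133240867 on the plus strand for Map3k6 and at chr10:21993640-21993939 on the plus strand for Sgk1, 1 of 6 listed starts of that gene.
Map3k6: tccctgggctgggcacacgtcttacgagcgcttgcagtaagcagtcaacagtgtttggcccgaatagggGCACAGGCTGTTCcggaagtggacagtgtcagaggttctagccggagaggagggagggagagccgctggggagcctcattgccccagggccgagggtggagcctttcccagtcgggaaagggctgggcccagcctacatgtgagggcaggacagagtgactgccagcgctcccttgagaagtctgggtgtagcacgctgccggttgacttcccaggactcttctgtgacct
Sgk1: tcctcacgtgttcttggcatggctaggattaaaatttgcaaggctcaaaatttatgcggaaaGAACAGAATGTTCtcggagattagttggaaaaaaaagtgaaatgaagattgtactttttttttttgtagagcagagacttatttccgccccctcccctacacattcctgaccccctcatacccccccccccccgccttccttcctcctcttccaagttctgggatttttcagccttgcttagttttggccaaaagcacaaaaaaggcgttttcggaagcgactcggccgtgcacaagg
Zfp36: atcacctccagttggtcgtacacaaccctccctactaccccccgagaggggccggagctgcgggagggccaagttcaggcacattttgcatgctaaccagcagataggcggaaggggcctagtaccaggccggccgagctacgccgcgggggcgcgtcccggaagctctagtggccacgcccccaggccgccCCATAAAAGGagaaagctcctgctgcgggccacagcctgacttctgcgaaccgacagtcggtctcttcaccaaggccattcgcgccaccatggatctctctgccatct
The element ran from -181 to -169 in Map3k6 and from -188 to -176 in Sgk1, and the CArG box from -58 to -49 in Zfp36, counted from the start. A promoter was listed for 202 of the 237 raised genes, and 9 of the 202 (4.46%) held a glucocorticoid element. It was in 29 of 6772 tested genes with a promoter (0.428%), in 1 of 240 lowered genes (0.417%) and in 0.475% of all 32851 promoters of the same length. A CArG box was in 6 of the 202 (2.97%) and in 1.74% of the tested genes. The other 4 motifs searched were AP-1 (TGACTCA) in 7.43% of the raised and 4.61% of the tested genes, the cyclic AMP element (TGACGTCA) in 2.48% and 3.60%, the antioxidant element (TGACNNNGC) in 16.8% and 16.9%, and the heat shock element in 0 of 202 and 0.605%. A match describes letters and is not evidence of binding.

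The 9 raised genes with the element were Fkbp7, Gnmt, Limd2, Map3k6, Mt1, Mterf2, Serpina3n, Sgk1 and Txnip. Their paraquat effects differed little between genotypes, with differences from -0.21 to 0.40 and a median of -0.11, and without array 2 from -0.10 to 0.20 with a median of 0.10. The smallest unadjusted p among them was 0.175, and 0.509 without array 2. Sgk1, a kinase that controls ion transport and is a standard target of the receptor, read 10.08, 10.18 and 10.43 in wild-type mice under saline and 11.50, 11.66 and 11.56 under paraquat. In the knock-out it read 9.81, 9.88 and 10.25 under saline and 11.64, 11.19 and 11.33 under paraquat. Every paraquat array lay above every saline array in both genotypes, and the difference of the effects was 0.06 (SE 0.34). Map3k6, a stress-activated kinase of the MAP kinase cascade, had the largest difference of the 9. Its knock-out paraquat arrays read 6.68, 7.15 and 6.39, against 6.76, 6.32 and 6.62 in wild-type paraquat mice, and array 2 was the highest of all 12. The difference was 0.40 with all arrays and 0.20 (SE 0.32) without array 2.

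Array 2 of the knock-out paraquat group stood apart from the other 11 arrays before any comparison was made. Its median log2 value was 6.98, against 7.10 to 7.15 on the others, its values spread less (SD 2.06 against 2.24 to 2.28) and its mean correlation with the other arrays was 0.957 against 0.980 to 0.986. It lay more than 1 log2 unit beyond both other arrays of its group for 147 genes (1.77%), above them for 83 and below them for 64, whereas this held for 0 or 1 gene on each of the other 11 arrays. Among the control probe sets, the signal of pyruvate carboxylase at the 3′ end exceeded that at the 5′ end by 2.25 on this array and by 2.67 to 3.16 on the others. The same measure of Gapdh was 0.03 against 0.05 to 0.24, and that of Actb was 0.81, inside the range of 0.70 to 0.98. On the 6 transgenic arrays the measure ran from 1.82 to 2.88 for pyruvate carboxylase and from -0.16 to 0.07 for Gapdh. In these 2 measures array 2 was thus not exceptional in the series. Its median, SD and mean correlation lay below those of the transgenic arrays too (7.14 to 7.15, 2.20 to 2.28 and 0.970 to 0.981). The cause was not tested. Most differences and counts, and some effects, are therefore given with all arrays and without it. A difference or effect given alone is from all arrays unless stated. The knock-out paraquat group then has 2 arrays, which were taken to vary like the arrays of the other groups.

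The array shifted the difference of most genes in 1 direction. With all arrays the median difference over 8320 genes was -0.12 (SD over genes 0.17), 80.8% of the differences were negative, and values between -0.36 and 0.20 took in the middle 90% of genes. Without array 2 the median was -0.01 (SD 0.12), 53.8% were negative, and the middle 90% ran from -0.21 to 0.16. Quantile normalization with all arrays moved the median to -0.02. The tests and intervals given here are nevertheless against 0. Relative to the other genes, negative differences with all arrays thus look larger than they are and positive ones smaller. The effects in the 2 genotypes ran in parallel across genes, with a Pearson correlation of 0.70 with all arrays and 0.83 without array 2 (Spearman 0.57 and 0.72), over 8320 genes that share the same arrays and are not independent of each other.

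**Figure D1:**
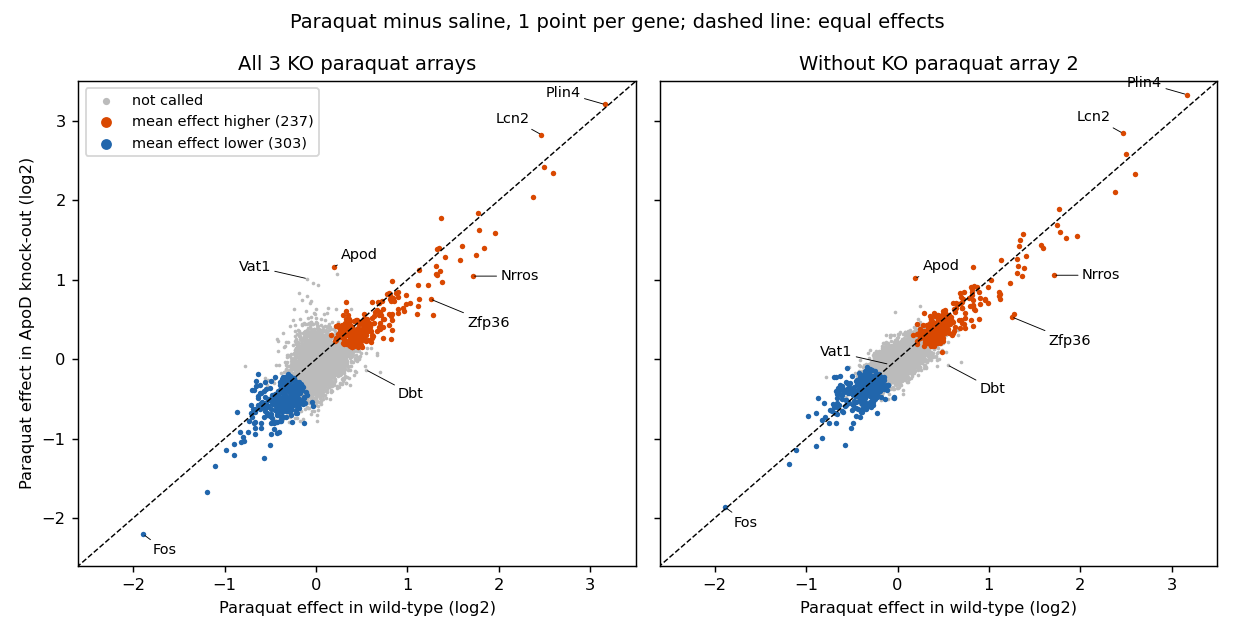
Paraquat effect (paraquat minus saline, log2) of each of 8320 genes in wild-type mice on the horizontal axis and in ApoD knock-out mice on the vertical axis, with all arrays on the left and without array 2 of the knock-out paraquat group on the right. The 237 raised genes are orange, the 303 lowered genes blue and all others grey, and the cloud lies closer to the dashed line of equal effects on the right, where the correlation across genes is 0.83 against 0.70.

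The precision sets what a count of 0 can say. The 95% confidence interval of a gene's difference had a median half-width of 0.38 with all arrays and 0.32 without array 2. For 8074 genes (97.0%) the whole interval lay within 1 log2 unit of 0, which is a 2-fold change in the effect, and without array 2 for 8258 (99.3%). A bound of 0.5 held for 3535 genes (42.5%) and, without array 2, for 6370 (76.6%). These intervals are for 1 gene at a time. The number of arrays limits them, and their widths also rest on a spread estimated with the transgenic arrays included. Without array 2, an unadjusted p under 0.05 was seen for 63 genes (0.757%) with the transgenic arrays in the fit. With them left out it was seen for 278 (3.34%). With array 2 kept, the numbers were 148 and 193. None of these fits called a different paraquat effect, and interval widths without the transgenic arrays were not examined. In the fit used here, even 1 gene at a time, differences below about 0.4 could not be told from 0 for most genes. The count of 0 rests on the adjusted p of limma, which is stricter. Apod, with a difference of 0.97, had an adjusted p of 0.487 with all arrays. Zfp36, at -0.72 without array 2, had one of 0.383. The count therefore does not exclude differences well above 0.4.

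Apod itself came first, and its values check the labels. The wild-type arrays read 12.47, 12.38 and 12.54 under saline and 12.53, 12.68 and 12.76 under paraquat. The knock-out arrays read 8.40, 8.22 and 8.50 under saline and 9.63, 9.83 and 9.16 under paraquat. Every knock-out array lay below every wild-type array, by 4.09 log2 units between the saline means (adjusted p 4.9e-14). Within the knock-out, every paraquat array lay above every saline array, whereas the wild-type paraquat and saline ranges overlapped at 12.53 and 12.54.

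The paraquat effect on the Apod signal was 0.19 (95% interval -0.09 to 0.47) in wild-type mice and 1.16 (0.88 to 1.44) in knock-out mice. The first missed the test (adjusted p 0.809) and the second passed it (adjusted p 3.2e-05). Their difference was 0.97 (SE 0.19, 95% interval 0.57 to 1.37), with an unadjusted p of 5.9e-05 and an adjusted p of 0.487. Without array 2 the difference was 0.82 (0.48 to 1.17), with an adjusted p of 0.436. It passed in the fit that left out array 3 of the knock-out paraquat group, at 1.16 with an adjusted p of 0.0049. On the linear scale the group means went from 332 to 743 in the knock-out and from 5646 to 6456 in the wild-type, so that the larger effect on the log scale was the smaller step in linear units. A single probe set with 1 symbol represents Apod, and where its probes lie relative to the deleted part was not established, so what transcript gives the knock-out signal was not tested.

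**Figure D2:**
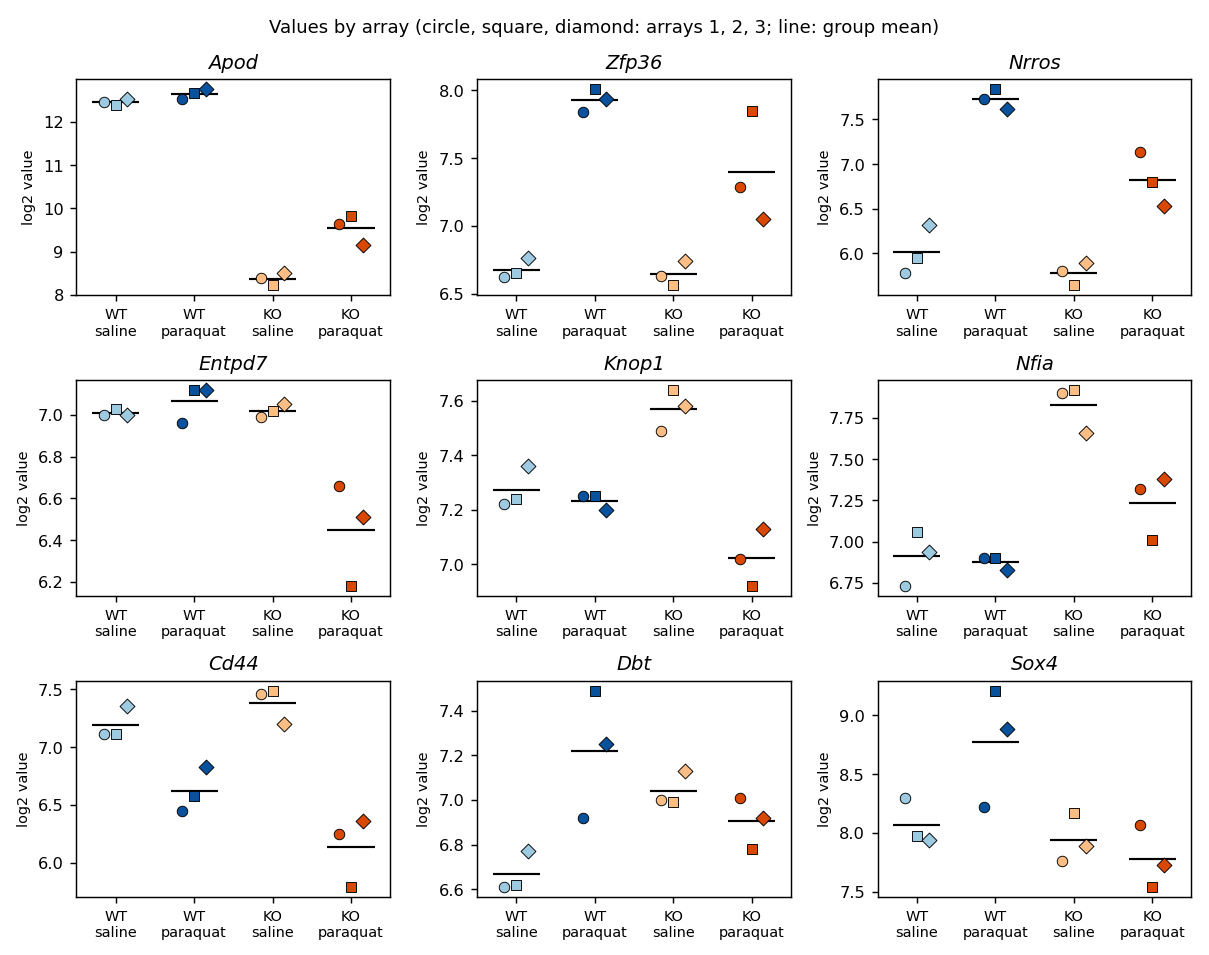
Deposited log2 values of 9 genes on the 12 arrays, with wild-type (WT) in blue and ApoD knock-out (KO) in orange, and a line at each group mean. Apod is lower on all knock-out arrays and the knock-out paraquat arrays lie at 9.16 to 9.83, Zfp36 and Nrros lie lower on the knock-out than on the wild-type paraquat arrays except for Zfp36 on array 2 (7.85), and Entpd7, Knop1 and Nfia are low on the knock-out paraquat arrays relative to knock-out saline.

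Zfp36 encodes tristetraprolin, a protein that binds AU-rich elements and speeds the decay of mRNAs of cytokines and early response genes. The wild-type arrays read 6.62, 6.65 and 6.76 under saline and 7.84, 8.01 and 7.94 under paraquat. In the knock-out the saline arrays read 6.63, 6.56 and 6.74 and the paraquat arrays 7.29, 7.85 and 7.05. The saline groups of the 2 genotypes overlapped, and on arrays 1 and 3 the knock-out paraquat value was lower than on any wild-type paraquat array, while array 2 fell among them.

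Zfp36 was raised, with effects of 1.25 in the wild-type and 0.76 in the knock-out (0.53 without array 2). The difference was -0.50 (95% interval -0.92 to -0.07, adjusted p 0.868) with all arrays and -0.72 (-1.01 to -0.44, adjusted p 0.383) without array 2, where its unadjusted p of 4.6e-05 was the smallest of all genes. When each array was weighted by its own noise, which gave array 2 a weight of 0.057, both Apod and Zfp36 passed (differences of 0.94 and -0.69, adjusted p 0.0057 and 0.0067). For Zfp36, array 2 thus made the difference smaller.

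Nrros, an endoplasmic reticulum protein of myeloid cells that limits the production of reactive oxygen species, was also raised with a smaller effect in the knock-out. Wild-type arrays read 5.78, 5.95 and 6.32 under saline and 7.73, 7.84 and 7.62 under paraquat, and knock-out arrays read 5.80, 5.64 and 5.89 and then 7.14, 6.80 and 6.53. The 3 knock-out paraquat arrays lay below all wild-type paraquat arrays and above all saline arrays. The effects were 1.71 and 1.04, and the difference of -0.67 (-1.17 to -0.17) was -0.66 without array 2, with adjusted p of 0.868 and 1.00. Ddit4, an inhibitor of mTOR complex 1 that stress hormones and hypoxia raise, had effects of 1.28 and 0.55. Its difference of -0.73 (-0.70 without array 2) came with an interval of -1.69 to 0.24, and its wild-type saline arrays read 8.68, 9.34 and 9.6.

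Acer2, an alkaline ceramidase of the Golgi, read 7.18, 7.19 and 7.31 on the wild-type paraquat arrays and 6.81, 6.35 and 6.86 on those of the knock-out, from saline values of 6.19 to 6.54 in both genotypes together. Its difference was -0.57 with all arrays and -0.41 (-0.83 to 0.02) without array 2. Pdk4, a kinase that turns off pyruvate dehydrogenase, had effects of 1.11 and 0.57, and without array 2, which read 6.52 beside 7.55 and 7.12, the knock-out effect was 0.84. Its difference went from -0.53 to -0.26. Other probe sets of a gene bear on single values here: the 1 other probe set of Acer2 had the opposite sign.

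Several genes had lower values under paraquat in the knock-out and an effect near 0 in the wild-type. Entpd7, an intracellular nucleoside triphosphatase, read 7.03 on array 2 and 7.0 on arrays 1 and 3 in wild-type saline, 6.96, 7.12 and 7.12 in wild-type paraquat, 6.99, 7.02 and 7.05 in knock-out saline and 6.66, 6.18 and 6.51 in knock-out paraquat mice. The 3 knock-out paraquat arrays lay below the other 9. The difference was -0.62 (-0.99 to -0.26, adjusted p 0.868) and without array 2 -0.49 (-0.81 to -0.17, adjusted p 1.00). With all arrays, the other 3 probe sets of the gene had differences of the opposite sign, and the mean of all its probe sets gave 0.03.

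Knop1, a lysine-rich nucleolar protein, read 7.49, 7.64 and 7.58 in knock-out saline and 7.02, 6.92 and 7.13 in knock-out paraquat mice, while the wild-type arrays lay at 7.36 or lower under both treatments. The difference was -0.50, and -0.45 without array 2, and the 1 other probe set gave -0.015 and turned in sign without array 2. Gca, the calcium-binding protein grancalcin, gave -0.57 and -0.45, and its other probe set -0.21. Apod, Entpd7, Knop1 and Gca were the 4 genes found both among the 10 smallest p-values with all arrays and among the 10 smallest without array 2.

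Nfia, a nuclear factor I transcription factor of neural and glial development, differed between the genotypes already under saline. Knock-out saline arrays read 7.90, 7.92 and 7.66 and wild-type saline arrays 6.73, 7.06 and 6.94, a difference of 0.91 (adjusted p 0.0038). Under paraquat the knock-out arrays read 7.32, 7.01 and 7.38 and the wild-type arrays 6.90, 6.90 and 6.83. The difference of the effects was -0.55, and -0.44 without array 2. Neither of its 2 other probe sets had the same sign with all arrays. Gatad2b, a subunit of the NuRD chromatin complex and named here after its values were seen, also differed between the genotypes under saline, and was lower in the knock-out (8.68, 8.43 and 8.45 against 9.89, 9.98 and 9.82). Its difference of 0.70 (0.55 without array 2) was an unsteady one, since wild-type paraquat array 1 read 8.06 beside 9.66 and 9.63.

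Cd44, the hyaluronan receptor, was lowered in both genotypes. It read 7.11, 7.11 and 7.36 in wild-type saline and 6.45, 6.58 and 6.83 in wild-type paraquat mice, and 7.46, 7.49 and 7.2 against 6.25, 5.79 and 6.36 in the knock-out. All 3 knock-out paraquat arrays lay below the wild-type paraquat arrays. The difference was -0.67 (-1.16 to -0.18), and -0.50 (-0.96 to -0.05) without array 2. The 1 other probe set of Cd44 gave -0.03.

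Dbt, a subunit of the branched-chain ketoacid dehydrogenase, and Sox4, a transcription factor of neural progenitors, showed the converse of Entpd7, with values that were higher under paraquat in the wild-type and not in the knock-out. Dbt read 6.61, 6.62 and 6.77 and then 6.92, 7.49 and 7.25 in wild-type mice, and stayed between 6.78 and 7.13 on all knock-out arrays. The wild-type effect of 0.55 compared with -0.14 in the knock-out, and the difference was -0.68, or -0.62 without array 2. Sox4 gave -0.85 and -0.73, and its wild-type paraquat arrays spread from 8.22 to 9.21. Its 5 other probe sets had differences from -0.41 to 0.63, and 3 of the 5 shared its sign. Mbd1, a reader of methylated DNA, Rnase4, a secreted ribonuclease, and Reck, an inhibitor of matrix metalloproteinases, were the other genes among the 10 smallest p-values, with differences of -0.59, -0.53 and -0.53 that became -0.45, -0.42 and -0.36 without array 2. In all 3, array 2 was the lowest array of the knock-out paraquat group.

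Of the 10 smallest p-values without array 2, 6 belonged to genes that array 2 moved towards 0, Zfp36 and 5 others. The differences of Lyrm1, Dscaml1, a neuronal adhesion protein, and Slc30a1, a zinc exporter, were -0.39, -0.53 and -0.33 without array 2 and -0.24, -0.29 and -0.17 with it. Car4, a membrane-bound carbonic anhydrase of brain capillaries, and Ash2l, a subunit of histone H3 lysine methyltransferases, were 0.43 and 0.29 without it and 0.18 and 0.16 with it. Car4 was lowered, with wild-type paraquat arrays at 10.03, 9.61 and 9.76 and knock-out paraquat arrays at 10.11, 9.41 and 10.27, from saline values of 10.28 to 10.38. None of the 5 passed the test in either fit, and the other probe sets of Dscaml1 with all arrays and of Ash2l without array 2 had the opposite sign.

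The size of a difference was a poor guide to whether it held without array 2. Of 47 genes with a difference above 0.5 with all arrays, 2 stayed above 0.5 without array 2 (Apod and Gatad2b). Of 81 below -0.5, 5 stayed below it (Cd44, Dbt, Ddit4, Nrros and Sox4). The largest positive value of all belonged to Vat1, a membrane protein of synaptic vesicles, whose knock-out paraquat arrays read 6.45, 9.81 and 6.70, against 6.57 to 7.02 on the other 9 arrays. Its difference was 1.11 with all arrays and 0.03 without array 2. Tmem38b, a potassium channel of the endoplasmic reticulum, read 8.22, 10.36 and 8.14 (1.01 and 0.28), and Fmo2, a flavin-containing monooxygenase, read 7.77, 10.41 and 7.79 (0.99 and 0.12). Sema6c, C86187 and Myoz1 followed the same course, from 0.90, 0.89 and 0.88 to 0.15, 0.16 and 0.24. In the other direction Zfp326 went from -0.79 to -0.32, Yes1 from -0.72 to -0.27 and Tmem267 from -0.70 to -0.38. Gh, the pituitary growth hormone, ranged from 6.41 to 9.96 over the 12 arrays, with no order by group, and its interval ran from -1.44 to 3.13.

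**Figure D3:**
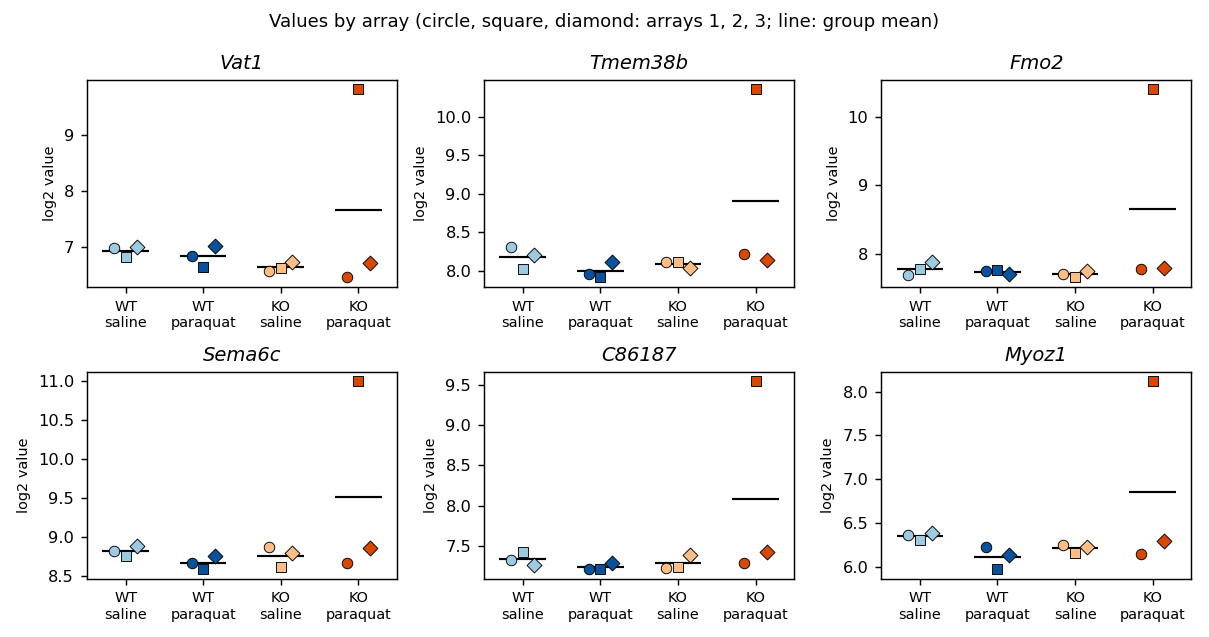
Deposited log2 values of the 6 genes with the most positive differences that came from a single array, by group, with array 2 as a square. In each, array 2 of the knock-out paraquat group (8.12 for Myoz1 and 9.81 for Vat1) lies more than 1 unit above the other 11 arrays.

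The 8 raised genes with the largest mean effects had differences whose intervals took in 0. Plin4, a coat protein of lipid droplets, had the largest mean effect: wild-type arrays read 6.06, 5.95 and 6.58 and then 9.52, 9.01 and 9.55, and knock-out arrays 6.28, 5.78 and 6.59 and then 9.51, 9.17 and 9.59. The 2 paraquat groups overlapped, as did the 2 saline groups. The difference of 0.04 had an interval of -1.20 to 1.28, and it was 0.17 without array 2. Lcn2, a lipocalin like ApoD that binds iron-carrying siderophores, went from 4.14, 4.28 and 4.30 to 6.39, 6.70 and 7.01 in the wild-type and from 4.28, 4.19 and 4.10 to 6.61, 6.98 and 7.46 in the knock-out. Its effects of 2.46 and 2.83 differed by 0.36 (-0.22 to 0.94), and by 0.38 without array 2.

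Cdkn1a, the cell cycle inhibitor p21, had effects of 2.59 and 2.35 (difference -0.25, interval -0.89 to 0.39, and -0.26 without array 2). Fkbp5, an immunophilin found in the receptor's chaperone complex, had 2.50 and 2.42 (-0.07, -0.79 to 0.64). Its difference changed sign without array 2, to 0.08. The others of the 8 largest mean effects among raised genes were Sgk3 (-0.33), the sulfotransferase Sult1a1 (0.07), adenosine deaminase Ada (-0.37) and Angptl4 (-0.16), an inhibitor of lipoprotein lipase. Without array 2 these differences were -0.27, 0.12, -0.41 and -0.18. A gap of up to 1 log2 unit or more in the effect stays within the intervals of Plin4, so the values do not show that the genotypes answered equally there.

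Of the 8 lowered genes with the largest mean effects, Cd44 (above) had an interval that left out 0, and the other 7 did not. Fos, part of the AP-1 transcription factor, had the largest mean effect. Wild-type arrays read 9.65, 9.72 and 9.45 and then 7.74, 7.73 and 7.70, and knock-out arrays 10.32, 10.39 and 9.95 and then 8.01, 7.33 and 8.72. Effects of -1.89 and -2.21 gave a difference of -0.32 (-1.07 to 0.44), and 0.03 without array 2. The nuclear receptors Nr4a2 and Nr4a1 gave -0.48 and -0.21 (-0.13 and -0.17 without array 2), and the chemokine gene Cxcl12 gave -0.24 and -0.04. Serpinb1a, an inhibitor of neutrophil proteases, gave -0.30 and -0.19, and its 1 other probe set 0.11. Sox2, the stem cell and glial transcription factor, and Trim59, a ubiquitin ligase, changed sign, from -0.18 to 0.22 and from -0.16 to 0.27, with array 2 the lowest array of its group in both.

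**Figure D4:**
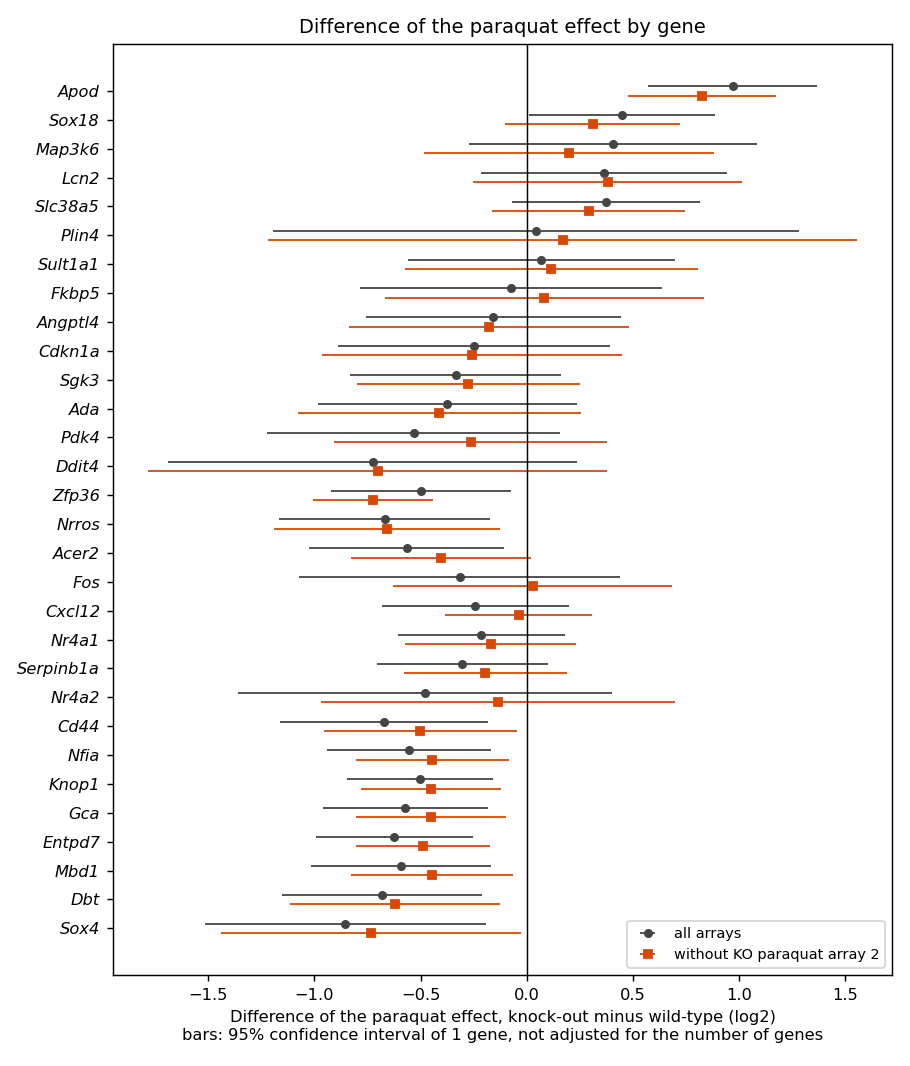
Difference of the paraquat effect (knock-out minus wild-type, log2) of 30 genes with its 95% confidence interval, as grey circles with all arrays and as orange squares without array 2 of the knock-out paraquat group. The intervals of Apod, Zfp36, Nrros, Cd44, Nfia, Knop1, Gca, Entpd7, Mbd1, Dbt and Sox4 leave out 0 in both fits, those of Plin4, Lcn2 and Fkbp5 take it in, and no gene has an adjusted p under 0.05. The genes listed as leaving out 0 were named for small p-values or large differences, which favours such intervals. The 2 fits share all arrays but 1. Of all 8320 genes, the interval left out 0 for 148 with all arrays and 63 without array 2. With all arrays, the interval of Zfp36 (-0.92 to -0.07) takes in the median of all genes, -0.12.

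Over all raised genes, the median effect was 0.487 in wild-type and 0.384 in knock-out mice, a ratio of 0.789, and 181 of 237 had the larger effect in the wild-type. Without array 2 the knock-out median was 0.437, the ratio 0.897 and the count 158 of 237. These counts are those of negative differences, 76.4% of the raised genes against 80.8% of all genes. Without array 2 they are 66.7% against 53.8%. The median difference of the raised genes, -0.13, was close to the -0.12 of all genes. Without array 2 it was -0.06 against -0.01. The mean of the 237 genes per array shows where this arose. It was 8.56, 8.53 and 8.55 on the wild-type paraquat arrays and 8.49, 8.27 and 8.36 on those of the knock-out, with saline arrays at 7.87, 7.88 and 7.96 and at 7.83, 7.83 and 7.90. All 3 knock-out paraquat arrays were below the wild-type ones, and array 2 was the lowest.

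Among the 26 genes raised more than 2-fold, the medians were 1.49 and 1.35, and 1.43 in the knock-out without array 2. The most positive differences among genes called in the mean effect, beside Apod and Map3k6, were those of Sox18 (0.45, and 0.31 without array 2), an endothelial transcription factor, Bcdin3d (0.39 and 0.06), an RNA methyltransferase, and Slc38a5 (0.37 and 0.29), a glutamine transporter. Sox18 and Slc38a5 were lowered genes with the smaller effect in the knock-out.

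Over the 303 lowered genes the median effect was -0.343 in wild-type and -0.504 in knock-out mice, a ratio of 1.47, and 242 of 303 had the larger effect in the knock-out. Without array 2 the knock-out median was -0.369, the ratio 1.07 and the count 165 of 303. A larger effect in the knock-out is here a negative difference, seen in 79.9% of the lowered genes against 80.8% of all genes. Without array 2 it was 54.5% against 53.8%, so the counts were near those of all genes. The means per array were 8.24, 8.32 and 8.30 in wild-type paraquat and 8.23, 7.88 and 8.32 in knock-out paraquat mice. Arrays 1 and 3 of the knock-out thus lay within 0.02 of the wild-type range and array 2 alone lay apart. The mean over all 8320 genes was itself 8.41 on array 2 and 8.68 to 8.72 on the others. Nav2, a neuron navigator protein, and Zeb2, a transcription factor of glia and neural crest, had the most negative differences among lowered genes after Cd44, at -0.66 and -0.57 (-0.37 and -0.36 without array 2).

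No gene of any of 32 lists of pathways, complexes and cell type markers passed the test of the difference, with or without array 2. The lists held 920 symbols, of which 785 were on the array and 647 were tested. The list medians of the difference were negative for 31 of 32 lists with all arrays and for 18 of 32 without array 2, when they lay between -0.11 and 0.06. The medians over all genes, -0.12 and -0.01, stand beside these. The list counts below stand beside 2.85% raised and 3.64% lowered over all genes, and 6.13% and 3.73% without array 2. The lists were chosen with earlier results of these data known, so their counts are descriptions and not independent support.

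The glucocorticoid response list held 41 tested genes, of which 29 were raised and 2 lowered, and the same numbers came without array 2. Over all genes 2.85% were raised and 3.64% lowered. The list holds genes with some of the largest mean effects here, such as Plin4, Lcn2, Sgk3 and Angptl4, and was chosen with earlier results known. Its count of raised genes is thus partly built in. Members low under saline, such as Lcn2 at 4.10 to 4.30 and Map3k6 at 4.77 to 5.31, can pass the filter through their paraquat arrays. This also favours raised genes in the count. Its median effect was 0.82 in wild-type and 0.73 in knock-out mice (0.78 without array 2), and the median difference was -0.08, or 0.00 without array 2. The largest differences in it were those of Ddit4 and Pdk4. Its mean per array was 9.58, 9.57 and 9.66 in wild-type paraquat and 9.57, 9.27 and 9.47 in knock-out paraquat mice, from 8.55 to 8.73 under saline, so that the paraquat groups overlapped at array 1.

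Of 28 antioxidant enzymes 5 were raised and 0 lowered (7 and 0 without array 2), beside 2.85% raised and 3.64% lowered over all genes, and 6.13% and 3.73% without array 2. No test compared a list with all genes. For the antioxidant enzymes, the list's median effect was 0.09 in wild-type and 0.01 in knock-out mice (0.08 without array 2). The metal-binding metallothionein Mt1 was among them, at 12.71, 12.70 and 12.83 and then 13.54, 13.45 and 13.65 in wild-type and at 12.48, 12.57 and 12.85 and then 13.51, 13.31 and 13.58 in knock-out mice, a difference of 0.04. Catalase, Cat, which degrades hydrogen peroxide, had the largest difference of the list at -0.49 (-0.29 without array 2, interval -0.78 to 0.20). Of 22 targets of NRF2, the transcription factor that answers to oxidants and electrophiles, 2 were raised and 1 lowered, with the same numbers without array 2. Aox1, an aldehyde oxidase, read 7.41, 7.29 and 7.21 in wild-type paraquat and 7.26, 6.99 and 7.24 in knock-out paraquat mice, with saline values of 6.60 to 6.78 and 6.92 to 6.97. It was raised, and its difference was -0.38 (-0.29 without array 2).

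Lipid genes bear on ApoD's own role as a lipid carrier. Of 23 genes of lipid droplets and lipolysis, 6 were raised and 0 lowered, in both fits, with a median difference of -0.16 (-0.04 without array 2). The filter can favour raised genes in this count too, through members low under saline such as Angptl4 at 5.74 to 6.03. Pnpla2, the main triglyceride lipase of droplets, had effects of 1.32 and 1.07 and a difference of -0.25 (-0.15), and Dgat2, which makes triglyceride, 0.49 and 0.17 and a difference of -0.32 (-0.23). With all arrays the 1 other probe set of each gene had the opposite sign, at 0.18 and 0.08. Of 25 genes of lipoproteins and lipid transport, 3 were raised, in both fits, and the list's median difference was -0.10 (-0.01 without array 2), with Apod as the highest and Lcn2 as another raised member. The 21 genes of cholesterol synthesis had the lowest median of all lists, -0.25, which became -0.10 without array 2. None of them was raised or lowered in either fit, and the largest differences, of Lss and Idi1, were -0.43 and -0.37 (-0.27 and -0.25).

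Other stress lists differed in their counts. In the immediate early genes, 1 of 22 was raised and 5 were lowered (2 and 5 without array 2), with a median difference of -0.19 (-0.07 without array 2). Egr4 in this list went from 0.69 to 0.22 without array 2. Of 28 genes of the unfolded protein response, 7 were lowered and 0 raised, and without array 2, 8 and 2. The median difference was -0.13, and 0.04 without array 2. Of 32 genes of inflammation and cytokines on the array, 10 were tested, of which 5 were raised and 1 lowered (6 and 1 without array 2). A gene low under saline, such as Lcn2 at 4.10 to 4.30, can pass the filter through its paraquat arrays, which favours raised genes in such a count. Nfkbia, Lcn2 and Cebpd are also counted in the glucocorticoid response list. Cebpd, a transcription factor of the acute phase response, had effects of 1.84 in the wild-type and 1.40 in the knock-out (1.52 without array 2). Of 22 targets of p53, 3 were raised and 1 was lowered with all arrays, and 8 and 1 without array 2. Zmat3 was lowered, with a difference of -0.42 (-0.26).

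**Figure D5:**
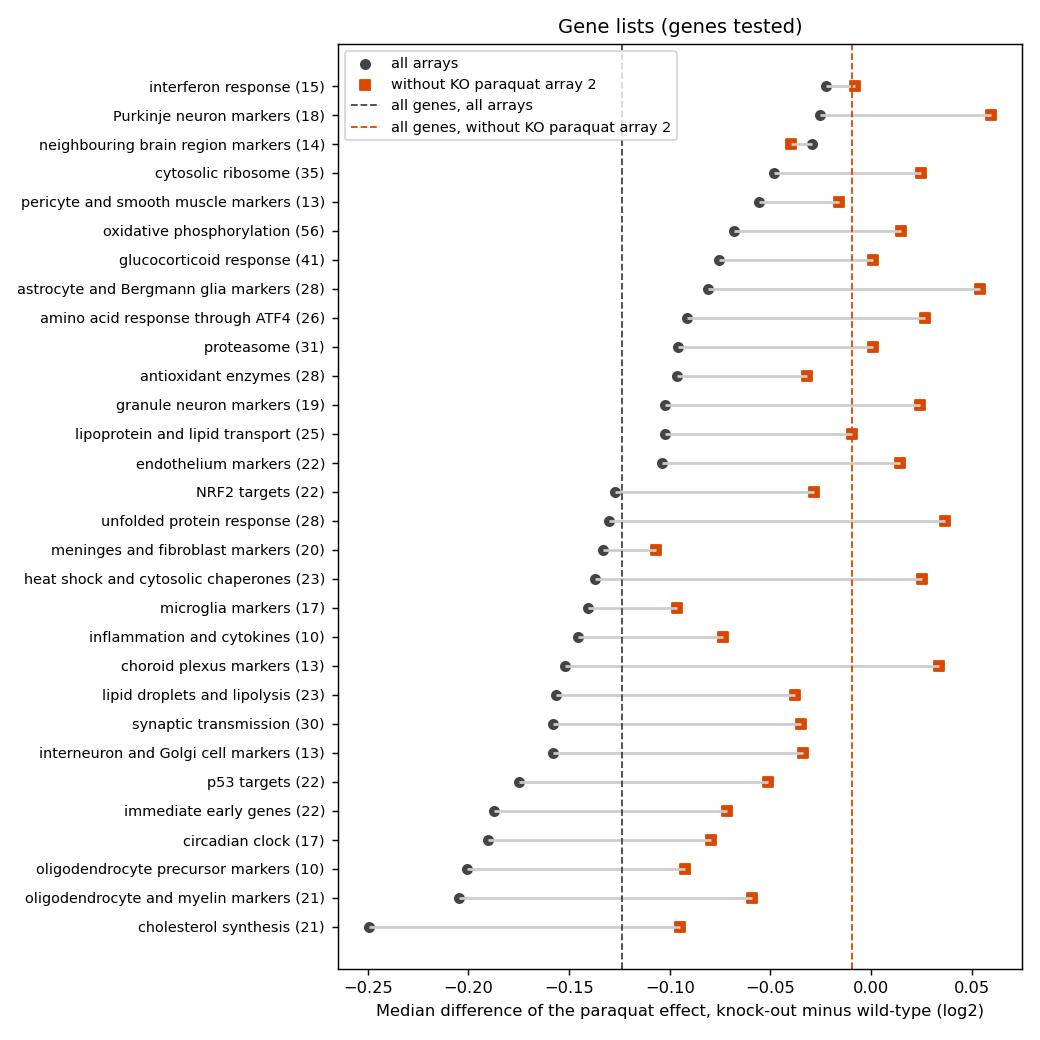
Median difference of the paraquat effect (knock-out minus wild-type, log2) of each list with 10 or more tested genes, as grey circles with all arrays and as orange squares without array 2, and dashed lines at the medians over all 8320 genes. The circles run from -0.25 (cholesterol synthesis) to -0.02 (interferon response) and the squares from -0.11 to 0.06.

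The markers of cell types describe what each array held. The mean log2 value of 19 granule neuron markers was 9.46 on array 2 and 9.62 to 9.79 on the other 11 arrays, and that of 18 Purkinje neuron markers was 10.31 and 10.55 to 10.72. Of the markers on the array, 19 of 19 of granule neurons and 18 of 21 of Purkinje neurons passed the filter on low values. So did 20 of 23 of meninges and fibroblasts, 13 of 16 of choroid plexus and 14 of 24 of neighbouring brain regions. These 14 include Sh2d3c, whose standing as a marker of such regions was not checked. For leukocytes it was 3 of 22 and for erythrocytes 3 of 8. Passing the filter thus does not single out the cerebellum. Oligodendrocyte and myelin markers included 8 lowered genes of 21, in both fits. Their mean was 9.99, 10.11 and 10.14 in wild-type paraquat and between 9.68 (array 2) and 10.06 in knock-out paraquat mice, from 10.24 to 10.30 under saline, and their median difference was -0.20, or -0.06 without array 2. In whole tissue, fewer cells of a type and less RNA per cell cannot be told apart.

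Array 2 also held other values for cells that are not neurons. The 13 choroid plexus markers averaged 7.47 on it and 7.92 to 8.22 elsewhere. The 3 leukocyte markers that passed the filter, of 22 on the array, averaged 7.93 on it and 7.46 to 7.61 elsewhere. The T cell genes Cd3e and Cd4 read 7.30 and 7.74 on it, while none of the other 11 arrays exceeded 6.65 and 7.2. The remaining gene, Coro1a, had a negative difference of -0.07 with all arrays. Array 2 lay over 1 unit above both other arrays of its group for 83 genes of many kinds, so these values do not establish a leukocyte content. The leukocyte list was the one with a positive median, 0.26, which became 0.01 without array 2. The part of these shifts in the differences was not tested, and the values without array 2 stand beside most results.

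Of 22 endothelial markers 3 were raised and 8 lowered, with 4 and 8 without array 2, and their median difference was -0.10 (0.01 without array 2). Flt1, a receptor of vascular endothelial growth factor, was lowered, with a difference of -0.36 (-0.24). Kcnj8, a potassium channel of pericytes, had effects of -0.12 and 0.29, a difference of 0.41 (0.09 to 0.73) and 0.34 without array 2 (0.05 to 0.62). The highest list median without array 2 among those with 10 or more genes was that of the Purkinje markers, 0.06, and the lowest that of 20 markers of meninges and fibroblasts, -0.11. In that last list, Prrx1, a homeobox factor of mesenchymal cells, was lowered with a difference of -0.46 (-0.31), which none of its 3 other probe sets shared in sign, and Crabp2, which carries retinoic acid, had 0.52 (0.32).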

How the data were processed

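Affymetrix 3′ expression arrays measured cerebellar RNA of pools of 3 mice. The deposited table gives log2 values made with RMA, per the submitters' processing notes, which give no version. Scanner files were not used here, and which arrays were normalized together is not given in the sources used here. The values run from 3.13 to 14.9 with array medians of 6.98 to 7.15, and no centring per gene was seen. No ratio with a direction is involved.

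Of 22690 rows, 64 were controls. Platform annotation, which can be old, named 1 gene for 20380 probe sets, and the 691 with several symbols and 1555 with none were left out. Each of 12393 genes was represented by its probe set of highest mean, and 8320 were kept, those at or above their array's 40th percentile on 3 or more arrays. A limma 3.58.1 model (R 4.3.3) of the 18 arrays had a mean for each of 6 groups (12 residual degrees of freedom, 11 without array 2), two-sided, called at an adjusted p under 0.05 after Benjamini-Hochberg correction. The mean effect averaged the wild-type and the knock-out paraquat effect. The procedure was tested on simulated data.

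The comparison, the lists and the rules were chosen with earlier results of these data known. Named genes were Apod, the 10 smallest p-values of the difference with all arrays and without array 2, up to 8 genes each way with the largest difference of constant sign when 1 array was left out and with the largest mean effect, the 6 most extreme differences each way among genes called in the mean effect, and 2 per list with the largest difference. Genes with a glucocorticoid element were added. Titles share replicate numbers, but the labels do not say whether these pair the arrays. Of 18 pairs of same-numbered arrays, 5 had correlated deviations above 0.1 (range -0.28 to 0.34). The numbers were not used as pairs in the main fit, and pairing was not excluded. Alternatives were array weights, another normalization or centring, other filters, the mean of all probe sets, a replicate block, trend and robust variance, the 12 arrays alone and each array left out.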

Additional observations from a re-analysis of the deposited data

How the results depend on the processing

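The count of genes with a different paraquat effect was 0 under every alternative except 2. It was 1 (Apod) without array 3 of the knock-out paraquat group, so that leaving out each of 12 arrays gave 0 to 1, and 2 (Apod and Zfp36) with array weights. Genes called in the mean effect numbered 540. They ranged from 354 (without knock-out saline array 2) to 829 (without knock-out paraquat array 3) when an array was left out, with 359 without wild-type paraquat array 1 and 820 without knock-out paraquat array 2, and numbered 2753 with array weights. A fit added after seeing the data, of the 12 arrays without knock-out paraquat array 2, called 0 differences (278 genes at an unadjusted p under 0.05, 3.34%, lowest adjusted p 0.153) and 1983 mean effects. The replicate block gave 0 differences and 620 mean effects, and the labels do not say whether the shared numbers pair the samples. The cause of these changes was not tested.

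Of 2328 differences of named genes by alternative, 34 changed sign. Without knock-out paraquat array 2, in both fits, Fkbp5 became 0.082, Fos 0.028, Trim59 0.271, Sox2 0.222, Ebf1 0.074 and Cd3e -0.011. With array weights Vat1 became -0.021, Fkbp5 0.044, Trim59 0.270, Sox2 0.121, Ebf1 0.115 and Cd4 -0.014. The mean of all probe sets turned Entpd7 (0.025), Dscaml1 (0.0019), Angptl4 (0.013) and Prrx1 (0.103), and quantile normalization turned Fkbp5 (0.071). Over the fits that left out 1 array, the genes that turned ranged from -0.173 to 0.232 for Plin4, -0.030 to 0.184 for Sult1a1, -0.197 to 0.082 for Fkbp5, -0.316 to 0.016 for Angptl4, -0.097 to 0.334 for Alas2, -0.668 to 0.028 for Fos, -0.462 to 0.271 for Trim59, -0.494 to 0.222 for Sox2, -0.488 to 0.074 for Ebf1 and -0.011 to 0.448 for Cd3e. The 3 arrays per group limit all of this.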
